A study of Rattus norvegicus with 36 samples.

Results

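The genes described here are 8 genes of bile acid transport and sensing, *Slc10a2*, *Fabp6*, *Slc51a*, *Slc51b*, *Abcc3*, *Nr1h4*, *Nr0b2* and *Gpbar1*, chosen by name among the 24773 genes of a raw count table from RNA-seq of ileum and colon. The 18 rats were male UCD-T2DM rats, a polygenic line in which type 2 diabetes arises spontaneously, and all were fasted before tissue was taken. Nondiabetic rats (ND, tagged PD in the labels) were 70 days old. Rats recently diabetic (D1M, RD in the sample titles) were 168 to 172 days old with 22 to 23 days of diabetes, and rats with diabetes of longer standing (D3M, LD in the titles) were 172 to 173 days old with 88 to 116 days. Each group held 6 rats, and each rat gave 1 library of ileum and 1 of proximal colon, 36 in all. No nondiabetic group shared the age of the diabetic rats, so that age and diabetes cannot be told apart in comparisons with ND, whereas D1M and D3M rats were of nearly the same age. D1M and D3M rats also differed in age at onset, body weight and fasting glucose (mean 123 mg/dl in D1M and 266 mg/dl in D3M). These cannot be told apart from the duration of diabetes.

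Bile acids, made in liver from cholesterol, are recovered at the end of the small intestine and returned to liver in portal blood. The enterocyte takes them up across its apical membrane, carries them on a cytosolic binding protein and releases them across its basolateral membrane through a transporter made of 2 different subunits. Bile acids inside the cell activate the nuclear receptor FXR, which in ileum is known to induce the binding protein, both basolateral subunits, the repressor SHP and the hormone FGF15. The receptor TGR5 senses bile acids at the cell surface.

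Libraries of ileum held 12279059 to 21510043 counts (median 18900050) and those of colon 10024041 to 18299050 (median 14633299). Levels are given as CPM, counts divided by the library total scaled by TMM and multiplied by 1e6, and are compared between samples but not between genes, since transcript lengths were not used. The ND ileum library of rat K4040 and the ND colon library of rat K4028 held RNA of the other tissue and were left out of levels and tests, which leaves 5 ND, 6 D1M and 6 D3M libraries in each tissue. Summed over 7 marker genes of colon epithelium, the former stood at 3905 CPM and the other 17 ileum libraries at 27.3 to 1536 CPM, the highest being D3M rat P762. The next highest, D3M rat P780, stood at 177 CPM, so that the ileum library of P762 also held colon markers. It was kept in levels and tests. Summed over 11 marker genes of ileal enterocytes, the colon library of K4028 stood at 8561 CPM and the other colon libraries at 242 to 669 CPM. Markers of the other tissue reached at most 177 CPM in ileum and 669 CPM in colon libraries. These maxima leave aside the 2 libraries left out and the ileum library of P762. The labels place the libraries on 3 sequencing flow cells. In colon, flow cell 1 held 2 ND and 2 D1M but 0 D3M libraries. In ileum, flow cell 2 held 3 ND and 1 D1M but 0 D3M libraries, and flow cell was a covariate in every edgeR test of the reported fits, but not in the permutation tests. With this covariate, the 3 ND ileum libraries of flow cell 2 inform the D3M to ND fold change only through the 1 D1M library there. The direct contrast rests on 1 ND library in flow cell 1 and 1 in flow cell 3.

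The 4 genes described below as higher in D3M ileum are shown first by the 250 bases before their annotated starts, from RefSeq promoter sequences of the rat build GRCr8, which held 6 of the 8 genes. Capitals mark matches to the half-site AGGTCA, and to the inverted repeat of this half-site spaced by 1 base (IR-1), the element that FXR binds as a pair with RXR. Both strands were searched, and up to 2 mismatches outside the spacer were allowed in IR-1.
Slc10a2, chr16:91087839-91088088, plus strand: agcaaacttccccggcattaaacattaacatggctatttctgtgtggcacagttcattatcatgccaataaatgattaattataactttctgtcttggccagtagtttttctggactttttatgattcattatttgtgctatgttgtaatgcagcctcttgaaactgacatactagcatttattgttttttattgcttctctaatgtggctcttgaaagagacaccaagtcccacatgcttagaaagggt
Fabp6, chr10:28569728-28569977, minus strand: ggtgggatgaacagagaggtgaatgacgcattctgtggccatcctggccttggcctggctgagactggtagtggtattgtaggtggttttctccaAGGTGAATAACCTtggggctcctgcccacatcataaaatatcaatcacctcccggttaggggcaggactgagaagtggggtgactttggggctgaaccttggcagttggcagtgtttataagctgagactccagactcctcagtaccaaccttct
Slc51a, chr11:81803891-81804140, plus strand: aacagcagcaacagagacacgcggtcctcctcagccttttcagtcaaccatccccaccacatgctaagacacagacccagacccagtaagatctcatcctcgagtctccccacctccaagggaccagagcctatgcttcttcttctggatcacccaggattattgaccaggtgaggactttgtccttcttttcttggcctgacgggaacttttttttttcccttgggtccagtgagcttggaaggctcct
Slc51b, chr8:74835110-74835359, minus strand: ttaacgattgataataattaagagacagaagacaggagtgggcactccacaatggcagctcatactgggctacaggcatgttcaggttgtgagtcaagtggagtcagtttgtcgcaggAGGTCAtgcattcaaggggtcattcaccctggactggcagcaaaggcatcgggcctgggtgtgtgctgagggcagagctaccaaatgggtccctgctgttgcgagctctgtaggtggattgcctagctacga
In *Fabp6* an IR-1 match with 2 mismatches lay 155 to 143 bases before the start, and 1.51% of 33469 promoters of 300 bases held such a match. In *Slc51b* the exact half-site, which 16.2% of promoters held, lay 132 to 127 bases before the start. The windows of *Slc10a2* and *Slc51a*, and those of *Nr0b2* and *Gpbar1*, held neither pattern, which concerns these letters in these windows alone.

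Genes of uptake, cytosolic binding and basolateral export were higher in ileum of D3M than of ND rats, whereas the receptor gene *Nr1h4* and the exporter gene *Abcc3* had estimates near 0. Of the 8 genes, 7 passed the filter on low counts in ileum, and 4 of these rose in D3M relative to ND rats at FDR < 0.05 in edgeR's quasi-likelihood test, 0 fell and 3 did not pass. Over all 13116 genes tested, 7.81% were called in this comparison, 5.86% as higher and 1.95% as lower in D3M rats. The median log2 fold change of the 7 genes was 0.84, beside -0.07 over all genes tested.

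*Slc10a2* (ENSRNOG00000037753, chromosome 16 of rn6, 90324361 to 90345865, plus strand) encodes ASBT, the apical sodium-dependent carrier that takes bile acids up from the lumen. The 5 ND ileum libraries stood at 12.6, 17.9, 19.9, 24.1 and 39.7 CPM, D1M libraries at 24.5 to 44.5 CPM (median 35.0) and D3M libraries at 41.5 to 67.0 CPM (median 53.3). Every D3M library lay above every ND library, and 5 of the 6 lay above every D1M library. The fitted difference of D3M over ND was 1.93-fold (log2 fold change 0.95, SE 0.23, FDR 0.0233).

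*Fabp6* (ENSRNOG00000003902, chromosome 10, 29191623 to 29196563, minus strand) encodes the ileal bile acid binding protein of the enterocyte cytosol. It stood at 12913, 14594, 15556, 16982 and 22258 CPM in ND ileum, at 19593 to 26182 CPM (median 22695) in D1M and at 16099 to 36133 CPM (median 29343) in D3M ileum. Of the D3M libraries, 5 exceeded the highest ND library, and the remaining one, of rat K3959, lay among the ND libraries. *Fabp6* was 1.76-fold higher in D3M than in ND ileum (log2 0.81, SE 0.22, FDR 0.0325).

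*Slc51a* (ENSRNOG00000001765, chromosome 11, 71533078 to 71547476, plus strand) and *Slc51b* (ENSRNOG00000028889, chromosome 8, 70930347 to 70932986, minus strand) encode OSTα and OSTβ, the subunits of the basolateral exporter. *Slc51a* stood at 2211, 2554, 2744, 2896 and 3131 CPM in ND ileum, at 2546.5 to 3571 CPM (median 3404) in D1M and at 3477 to 6069 CPM (median 4766) in D3M ileum. *Slc51b* stood at 674, 687, 812, 838 and 993 CPM in ND, at 716 to 1221 CPM (median 1019) in D1M and at 1126 to 1701 CPM (median 1432) in D3M ileum. For both subunits every D3M library lay above every ND library, as for *Slc10a2*, and 6.40% of the genes tested showed this separation. *Slc51a* was 1.79-fold higher in D3M than in ND ileum (log2 0.84, SE 0.16, FDR 0.00805) and *Slc51b* 1.92-fold (log2 0.94, SE 0.16, FDR 0.00651).

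**Figure D1:**
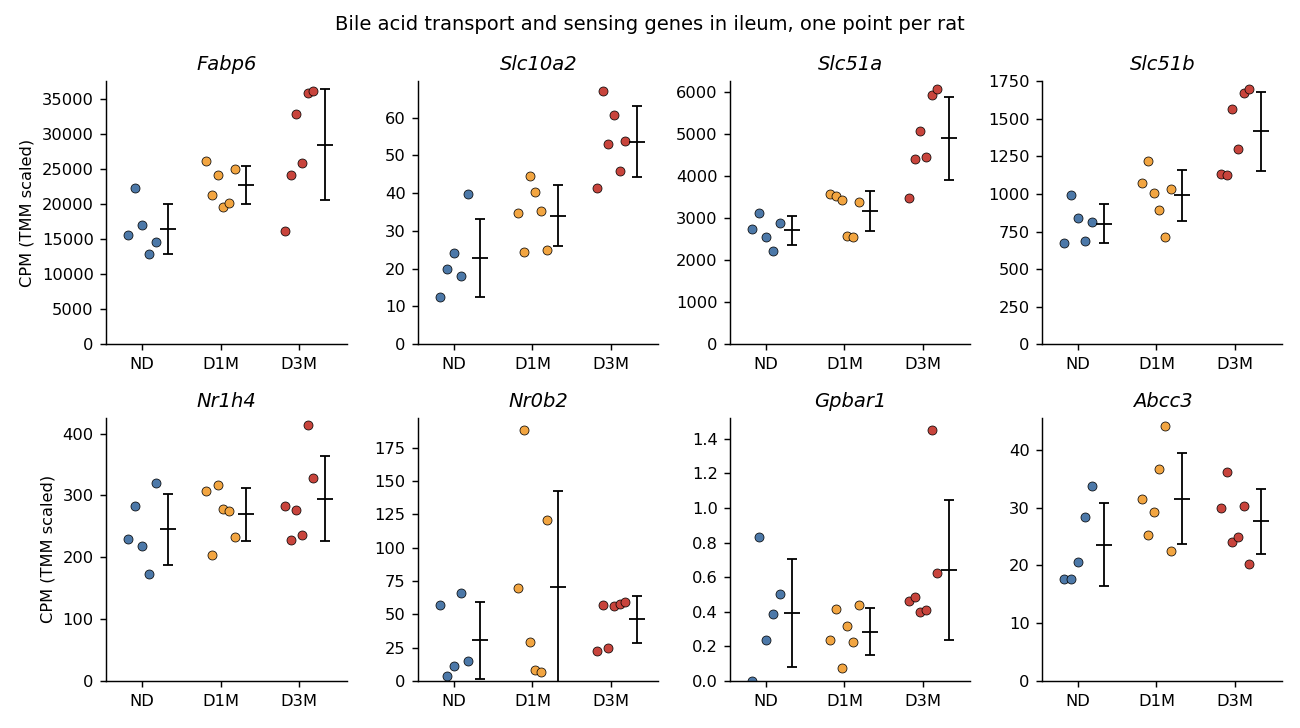
CPM of the 8 genes in ileum on linear axes that start at 0, with 1 point per rat and the mean ± SD beside each group (5 ND, 6 D1M and 6 D3M libraries, the mixed library left out). The D3M points of *Slc10a2*, *Slc51a* and *Slc51b* lie above all ND points, the groups of *Nr1h4* and *Abcc3* overlap, *Nr0b2* is spread from 3.49 to 188 CPM with an SD bar that reaches the axis in D1M, and *Gpbar1* reaches at most 1.45 CPM.

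For the 4 genes called, the difference had the same sign within each flow cell that held both groups, with 4 D3M libraries and 1 ND library in flow cell 1 and 2 D3M libraries and 1 ND library in flow cell 3. On the log2 scale, D3M exceeded ND in these flow cells by 0.46 and 1.94 for *Slc10a2*, by 0.72 and 1.21 for *Fabp6*, by 0.57 and 1.13 for *Slc51a* and by 0.65 and 1.32 for *Slc51b*. For *Nr1h4* the differences were -0.33 and 0.68, and for *Abcc3* -0.24 and 0.48, of opposite sign in flow cells 1 and 3. The estimates near 0 of *Nr1h4* and *Abcc3* thus combine unlike differences. The number of the 8 genes called was 1, *Slc51b*, without ND rat K4028 and 1, again *Slc51b*, without D1M rat K3986, and 0 when the fit held ND and D3M libraries alone, without the libraries of flow cell 2, or without the 6 ileum libraries highest in B cell markers, an alternative chosen after seeing the data. *Fabp6* also lost its call without D3M rat K3977, ND rat K4038 or ND rat K4048, so that it was called in 12 of the 17 fits that left out 1 library (highest FDR 0.170). In the fit of ND and D3M libraries alone and in those without flow cell 2 or the 6 libraries, 4 of the 8 genes had an unadjusted p under 0.05, and the log2 fold changes of *Slc10a2*, *Fabp6*, *Slc51a* and *Slc51b* were positive in every fit that was run.

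Markers of enterocytes moved with these genes. Of 11 ileal enterocyte markers, none of them a bile acid gene, 8 rose in D3M relative to ND ileum and 0 fell. The paper, from the same rats, lists *Slc15a1*, *Slc6a19*, *Slc5a1* and *Anpep* of these markers among ileal transcripts that set D3M apart from ND and from D1M. The rise of these markers is thus no separate evidence. The median log2 fold change of the 11 markers was 1.02, beside 0.81 to 0.95 for the 4 genes. The sum of these markers stood at 12452 to 20415 CPM in ND, 17651 to 24024 CPM in D1M and 25703 to 36306 CPM in D3M libraries. The sum of 11 markers of epithelium in general stood at 17215 to 23371 CPM in ND, 20784 to 25961 CPM in D1M and 24477 to 33560 CPM in D3M ileum, with 3 of its genes higher and 1 lower. In whole tissue, more cells of a type and more RNA per cell cannot be told apart. With libraries scaled to equal counts of the epithelium markers, the 4 genes remained higher in D3M than in ND ileum, by a log2 fold change of 0.59 for *Slc10a2* (FDR 0.0401), 0.41 for *Fabp6* (0.0353), 0.44 for *Slc51a* (0.0108) and 0.55 for *Slc51b* (0.00573). That scaling moved the median of all genes from -0.07 to -0.48 and the share of higher genes among all calls from 75% to 4.91%.

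B cell markers, abundant in lymphoid follicles of the gut wall, also differed between libraries. Their summed level, over 10 genes, stood at 13.0 to 915 CPM in ND, 8.45 to 622 CPM in D1M and 4.81 to 314 CPM in D3M ileum, with up to 3 of the genes at 0 in a library. With a B cell score in the model the 4 genes were still called, at log2 fold changes of 0.81 for *Slc10a2*, 0.65 for *Fabp6*, 0.76 for *Slc51a* and 0.88 for *Slc51b*. Smooth muscle markers stood at 1500 to 6913 CPM in ND and 1196 to 8147 CPM in D3M ileum, ranges that overlap. Of 5 hepatocyte markers, whose sum reached at most 6.23 CPM in any ileum library used, up to 3 were at 0 in a library, and the 1 tested was lower in D3M than in ND ileum. The parts of these cell types in the differences of the 4 genes were not tested beyond these fits. Leaving out D3M rat P762, the ileum library with the highest colon marker sum among those used, left 4 genes called.

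*Nr1h4* (ENSRNOG00000007197, chromosome 7, 30003429 to 30162056, minus strand) encodes FXR, the bile acid receptor of the nucleus. It stood at 173, 219, 229.5, 282 and 321 CPM in ND, at 204 to 317 CPM (median 277) in D1M and at 229 to 414 CPM (median 279.7) in D3M ileum, and the 3 groups overlapped. Its log2 fold change of D3M over ND was 0.00 with a 95% interval of -0.41 to 0.41. Scaled to the epithelium markers, its value was -0.39 (FDR 0.0174), a move of about the same size as that of the median of all genes, from -0.07 to -0.48. The reported estimate of 0.00 had no direction that could turn, so that the call depends on the scaling. The place of *Nr1h4* relative to the median of all genes did not turn.

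*Abcc3* (ENSRNOG00000002948, chromosome 10, 82047863 to 82117109, minus strand) encodes MRP3, a basolateral exporter of bile acids and of conjugates. It stood at 17.6, 17.7, 20.7, 28.4 and 33.7 CPM in ND, at 22.4 to 44.2 CPM (median 30.4) in D1M and at 20.2 to 36.2 CPM (median 27.5) in D3M ileum, again with overlap. The log2 fold change of D3M over ND was -0.01 with a 95% interval of -0.45 to 0.44. Of the genes for basolateral export, those of the OST subunits were thus called and that of MRP3 was not, and the difference between them was not tested.

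*Nr0b2* (ENSRNOG00000007229, chromosome 5, 151776004 to 151779319, plus strand) encodes SHP, a repressor that FXR induces. Its ND ileum libraries stood at 3.49, 10.9, 15.1, 57.3 and 65.8 CPM, its D1M libraries at 6.45 to 188 CPM (median 49.2) and its D3M libraries at 22.2 to 59.3 CPM (median 56.5). Within ND and within D1M rats the lowest and the highest library were thus far apart, and the D3M range lay within the range of either group. The log2 fold change of D3M over ND was 1.54 with a 95% interval of -0.34 to 3.42 (FDR 0.275). It was 0.29 without the libraries of flow cell 2 and 2.33 with the B cell score in the model (FDR 0.121).

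*Gpbar1* (ENSRNOG00000058260, chromosome 9, 81559605 to 81560594, plus strand) encodes TGR5. It had 0 to 20 counts in the 17 ileum libraries, at most 1.45 CPM, and 0 to 4 counts in the colon libraries, where 11 of 17 held 0. It did not pass the filter in either tissue and was not tested in the reported fits. In CPM, 4 of the 6 D3M ileum libraries, at 8 to 20 counts, lay above every D1M library, at 1 to 9 counts. The counts themselves overlapped, and the share of all genes with this separation was not computed. D3M and ND ileum overlapped. Where a smaller set of libraries or no filter let it into an ileum fit, it was not called between D3M and ND or between D3M and D1M rats.

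Between D1M and ND ileum 0 of the 7 genes tested were called in edgeR, 2 had an unadjusted p under 0.05 and DESeq2 also called 0, while 0.00762% of all genes were called. The log2 fold changes and 95% intervals were 0.40 (-0.04 to 0.85) for *Slc10a2*, 0.51 (0.09 to 0.92) for *Fabp6*, 0.23 (-0.06 to 0.53) for *Slc51a* and 0.40 (0.10 to 0.71) for *Slc51b*. The medians of these 4 genes in D1M libraries lay between those of ND and D3M libraries. Comparisons of D1M and of D3M with ND share the same ND libraries.

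Between the diabetic groups, of nearly the same age, both basolateral subunits were higher in D3M rats. In D3M relative to D1M ileum 2 of the 7 genes were higher, where 1.94% of all genes were called, 1.69% as higher and 0.252% as lower. *Slc51a* was 1.52-fold higher (log2 0.60, SE 0.12, FDR 0.0270) and *Slc51b* 1.45-fold (log2 0.54, SE 0.13, FDR 0.0417). *Slc10a2* at 0.55 (SE 0.18, FDR 0.109) and *Fabp6* at 0.31 (SE 0.16, FDR 0.322) did not pass, although DESeq2 also called *Slc10a2*. Within flow cells 1 and 3, D3M exceeded D1M by 0.61 and 0.79 for *Slc51a* and by 0.56 and 0.68 for *Slc51b* on the log2 scale.

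The ranges of D3M and D1M libraries overlapped for each of the 4 genes, with 5 of the 6 D3M libraries above all D1M libraries for *Slc51a* and 4 for *Slc51b*. The ileal enterocyte markers again moved along, with 7 of 11 higher in D3M than in D1M ileum and a median log2 fold change of 0.71. Both calls were lost without D1M rat K3978, K3988, K3989 or K3990, without D3M rat K3961, K3977, K3980 or P780, and without the libraries of flow cell 2, whereas *Slc51a* alone was called without D3M rat P762, without ND rat K4037 or K4038, without the flow cell term, and after scaling to the epithelium markers. Over the fits that left out 1 library, the log2 fold change lay between 0.56 and 0.67 for *Slc51a* and between 0.46 and 0.58 for *Slc51b*.

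**Figure D2:**
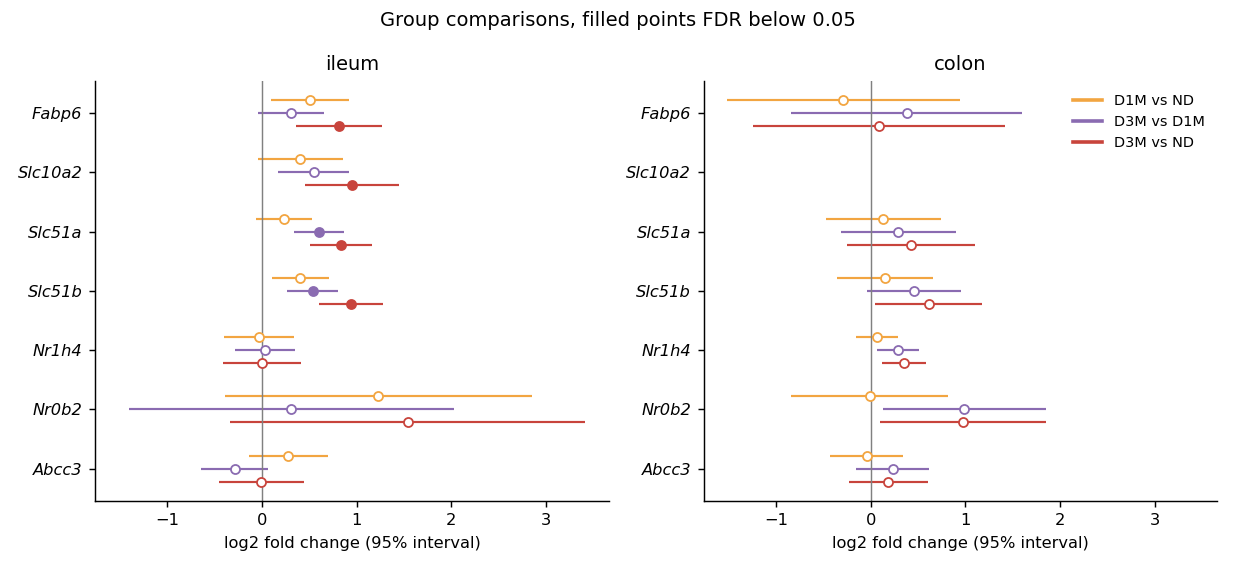
Log2 fold changes with 95% intervals in ileum (left) and colon (right) for the 7 genes that passed the filter in ileum, in D1M vs ND (orange), D3M vs D1M (purple) and D3M vs ND (red), with filled points at FDR below 0.05 and *Slc10a2* not tested in colon. In ileum 4 genes are filled for D3M vs ND and 2 for D3M vs D1M, and in colon 0 are filled.

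The counts of the subunits of the basolateral transporter stood in a similar ratio in the 3 groups of ileum. *Slc51a* counts over *Slc51b* counts came to 3.41 ± 0.42 in ND (SD, n = 5), 3.22 ± 0.28 in D1M and 3.46 ± 0.29 in D3M ileum (SD, n = 6 each). The level of either gene was called as higher in D3M than in ND and in D1M ileum, but not between D1M and ND. By a two-sided exact permutation test on the log2 ratio, D3M and ND ileum gave p = 0.786, D1M and ND p = 0.411, and D3M and D1M p = 0.175 (adjusted over the 3 comparisons 0.786, 0.617 and 0.526), with mean differences of 0.02, -0.08 and 0.10. With 5 or 6 libraries per group and no flow cell term, these tests cannot show that the ratio was constant. In colon the ratio was 1.60 ± 0.21 in ND, 1.58 ± 0.20 in D1M and 1.46 ± 0.42 in D3M libraries, below all ileum libraries, which spanned 2.87 to 4.07 beside 1.02 to 2.23 in colon.

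**Figure D3:**
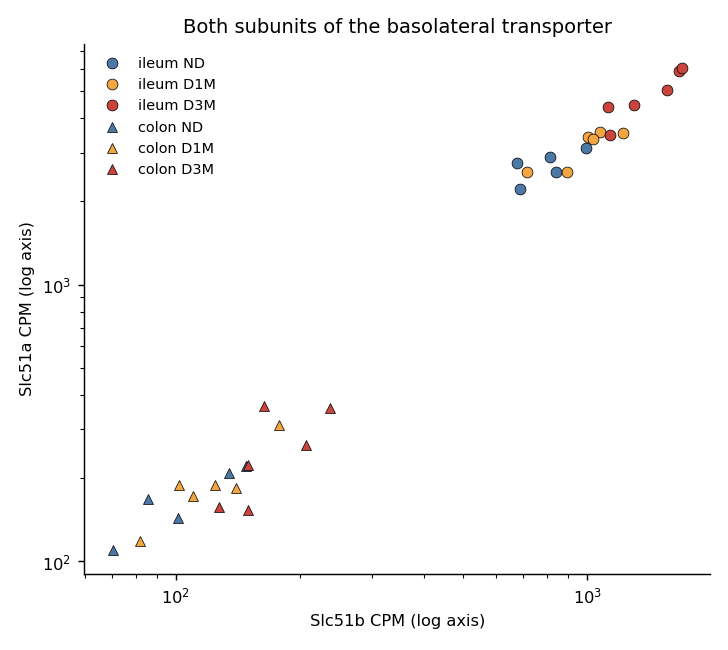
CPM of *Slc51a* against CPM of *Slc51b* on log axes, with 1 point per library, circles for ileum and triangles for colon, and blue for ND, orange for D1M and red for D3M. Ileum libraries lie along 1 band that rises from ND to D3M, and colon libraries lie lower, with less *Slc51a* for a given *Slc51b*.

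The genes whose log2 CPM, centred on its mean, followed *Slc51b*, *Slc51a* and *Slc10a2* most closely over the 17 ileum libraries were named by the smallest root mean square difference among 11346 genes. They were *Dedd2*, *Slc51a* and *Vamp8* for *Slc51b* (0.13, 0.13 and 0.14 on the log2 scale), *Pitpna*, *Rab17* and *Tuft1* for *Slc51a* (0.11, 0.13 and 0.13) and *Lgals8*, *Asap1* and *Itsn1* for *Slc10a2* (0.19, 0.21 and 0.22). *Slc51a* was the second closest gene to *Slc51b*, and *Slc51b* ranked 9 for *Slc51a*. The rank depends on which gene is taken as the reference. *Slc51a* and *Slc51b* ranked 10 and 20 for *Fabp6*, whereas *Fabp6* ranked 191 and 170 for *Slc51a* and *Slc51b*. *Slc10a2* ranked 5487 for *Slc51a*, 5985 for *Slc51b* and 6575 for *Fabp6*, and these ranked 1150, 1261 and 1792 for *Slc10a2*.

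Of 44 further genes of bile acid handling, chosen by function, 35 matched the table and 28 were tested in ileum. In D3M relative to ND ileum 2 of the 28 were higher and 1 lower, beside 5.86% and 1.95% of all genes tested. *Abcg2*, an apical efflux pump of the ABC family, stood at 594 to 853 CPM in ND, 959 to 1075 CPM in D1M and 1027 to 2120 CPM in D3M ileum, 2.07-fold higher in D3M than in ND (log2 1.05, SE 0.18, FDR 0.00651) and also higher than in D1M ileum (log2 0.58, SE 0.14, FDR 0.0419). *Cyp27a1*, the mitochondrial sterol 27-hydroxylase of the acidic pathway of bile acid synthesis, stood at 41.0 to 54.8 CPM in ND and 67.8 to 127 CPM in D3M ileum, a log2 fold change of 1.01 (SE 0.20, FDR 0.00948). *Hsd17b4*, a peroxisomal enzyme that shortens the bile acid side chain, fell in D3M ileum, by a log2 fold change of -0.59 relative to ND (SE 0.12, FDR 0.0113) and of -0.41 relative to D1M rats (SE 0.10, FDR 0.0464).

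By role, 1 of 6 other transporters, 0 of 13 transcription factors, 1 of 7 conversion enzymes and 0 of 2 hormone signalling genes were called as higher in D3M than in ND ileum, and 1 conversion enzyme as lower. The median log2 fold change of the 28 genes was 0.29. In D3M relative to D1M ileum 1 was higher and 1 lower, and between D1M and ND ileum 0 were called in edgeR, with 2 at an unadjusted p under 0.05. In colon 0 of 26 were called in any of the 3 comparisons, with 4 (D3M against ND), 0 (D1M against ND) and 3 (D3M against D1M) at that level.

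*Fgf15*, the hormone through which ileum lowers bile acid synthesis in liver, is described beside *Nr0b2* because FXR induces both, a choice made after its values were seen, and its row carries the symbol Fgf19 in the table. ND ileum libraries held 0.986, 4.42, 5.03, 10.9 and 35.7 CPM, D1M libraries 1.32 to 31.3 CPM (median 4.32) and D3M libraries 1.88 to 66.2 CPM (median 23.7). The groups overlapped over most of their range, as they did for *Nr0b2*. The log2 fold change of D3M over ND was 2.65 with a 95% interval of -0.24 to 5.55 (FDR 0.226). Among ND rats the libraries lowest and highest in *Nr0b2*, of rats K4037 and K4047, were also the lowest and highest in *Fgf15*, and among D1M rats K3989 was the lowest and K3986 the highest in both. Of these libraries K4047 and K3986 were also the highest of their groups in summed B cell markers, at 915 and 622 CPM, and K3989 the lowest of D1M, at 8.45 CPM. In D3M rats this order did not hold, with P762 the lowest in *Fgf15* at 1.88 CPM and at 57.8 CPM of *Nr0b2*.

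**Figure D4:**
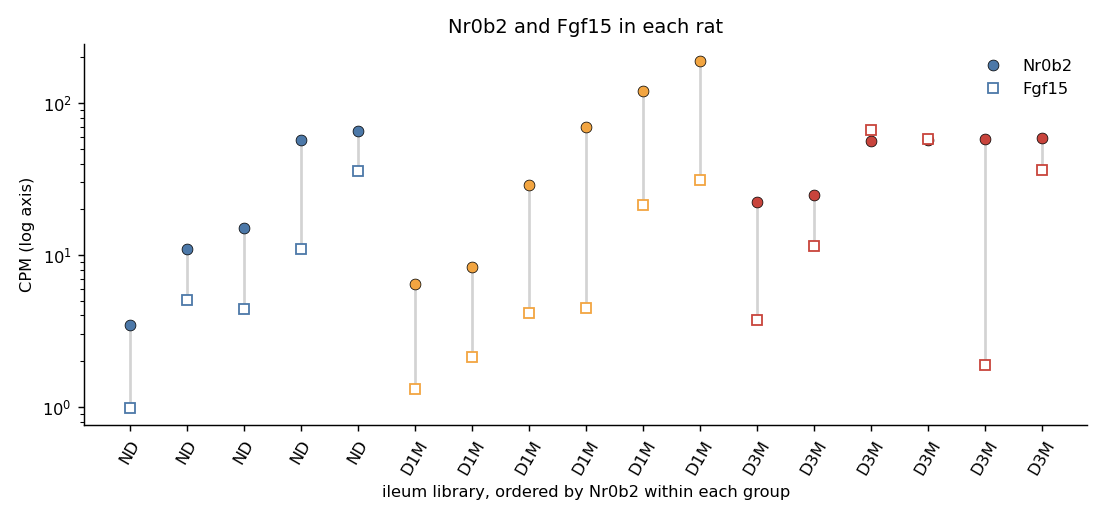
CPM of *Nr0b2* (filled circles) and *Fgf15* (open squares) on a log axis in each of the 17 ileum libraries, ordered by *Nr0b2* within ND (blue), D1M (orange) and D3M (red), with a line joining the values of 1 rat. In ND and D1M rats the extremes of both genes fall in the same libraries, and a D3M library with 57.8 CPM of *Nr0b2* holds 1.88 CPM of *Fgf15*.

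In colon the 8 genes gave no call in any group comparison. *Slc10a2* and *Gpbar1* did not pass the filter, and in edgeR 0 of the other 6 were called between D3M and ND, with 3 at an unadjusted p under 0.05. For D1M against ND 0 were called, with 0 at that level, and for D3M against D1M 0, with 2. DESeq2 called 0 in each, with 3, 0 and 3 at that level. Over all genes edgeR called 0.0308% for D3M against ND, 0% for D1M against ND and 0% for D3M against D1M, with 1048, 539 and 720 of 13005 genes at an unadjusted p under 0.05.

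*Nr1h4* stood at 159, 163, 172, 181 and 199 CPM in ND colon and at 179 to 261 CPM (median 211) in D3M colon, with 4 of 6 D3M libraries above all ND libraries (log2 fold change 0.35, SE 0.11, FDR 0.519). *Nr0b2* stood at 2.72, 5.81, 6.01, 6.15 and 9.89 CPM in ND and at 3.73 to 17.97 CPM (median 13.3) in D3M colon, with 5 of 6 above all ND libraries (0.98, SE 0.41, FDR 0.589). *Slc51b* stood at 70.1, 85.5, 101, 135 and 148 CPM in ND and at 127 to 237 CPM (median 157) in D3M colon, again with 5 of 6 above all ND libraries (0.61, SE 0.26, FDR 0.603). *Slc51a* at 0.42 (95% interval -0.25 to 1.10), *Fabp6* at 0.09 (-1.24 to 1.42) and *Abcc3* at 0.19 (-0.23 to 0.61) had intervals that span 0. Flow cell 1 held no D3M colon library. Within flow cells 2 and 3, D3M minus ND on the log2 scale was 0.36 and 0.32 for *Nr1h4* and 0.49 and 0.99 for *Nr0b2*. It was 1.085 and 0.249 for *Slc51b* and 0.23 and 0.305 for *Abcc3*. For *Slc51a*, at 0.93 and -0.14, and *Fabp6*, at -0.38 and 0.70, the sign differed between flow cells.

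Whether the change between D3M and ND rats differed between ileum and colon was tested directly. None of the 7 genes tested passed in edgeR, with 0 at an unadjusted p under 0.05 and 0 called in DESeq2, where 0.268% of all genes passed. The log2 fold change in ileum exceeded that in colon by 0.77 for *Fabp6* (95% interval -0.63 to 2.18), 0.46 for *Slc51a* (-0.29 to 1.21), 0.38 for *Slc51b* (-0.28 to 1.03) and 0.62 for *Nr0b2* (-1.34 to 2.57). The estimates were negative for *Slc10a2* at -0.22 (-1.84 to 1.40), *Nr1h4* at -0.30 (-0.78 to 0.17) and *Abcc3* at -0.15 (-0.77 to 0.47). All 7 intervals span 0.

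Colon and ileum differed in all 7 genes tested, 6 lower and 1 higher in colon, in a comparison in which 72.8% of all genes were called, 38.0% as higher and 34.7% as lower in colon. *Fabp6* averaged 22912 ± 7047 CPM over ileum libraries (SD, n = 17) and 7.97 ± 5.22 CPM over colon libraries (SD, n = 17), or -11.42 on the log2 scale (SE 0.35). *Slc10a2* averaged 37.7 ± 15.6 CPM in ileum and held 0 to 11 counts in colon, with 0 counts in 5 of 17 libraries, so that its fitted value of -7.41 (SE 0.28) depends on the prior count. The ileal average of *Slc51a* was 3645 ± 1167 CPM and the colonic one 208 ± 76.3 CPM (log2 -4.15, SE 0.15), and those of *Slc51b* were 1085 ± 324 and 136 ± 44.4 CPM (log2 -3.03, SE 0.12). For these 4 genes the libraries of the 2 tissues did not overlap, as for 17.3% of the genes tested.

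Of the sensing genes, *Gpbar1* averaged 0.441 CPM in ileum and 0.0437 CPM in colon and did not pass the filter, and with no filter on low counts it was called as lower in colon. For *Nr0b2* the averages were 50.1 ± 47.0 CPM (ileum) and 8.30 ± 4.58 CPM (colon), with overlapping libraries (log2 -2.72, SE 0.38). For *Nr1h4* they were 271 ± 57.5 CPM (ileum) and 193 ± 29.2 CPM (colon), at a log2 difference of -0.47 (SE 0.08). Its direction depends on the scaling, at 0.08 (FDR 0.373) with libraries scaled to equal epithelium markers, which moved the median of all genes by about as much, from 0.02 to 0.55. *Abcc3* was the gene higher in colon, at 77.5 ± 24.5 CPM against 27.8 ± 7.30 CPM in ileum (log2 1.49, SE 0.13). Colon was also the tissue richer in smooth muscle, whose marker sum stood at 5130 to 17744 CPM there and at 1174 to 8147 CPM in ileum.

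**Figure D5:**
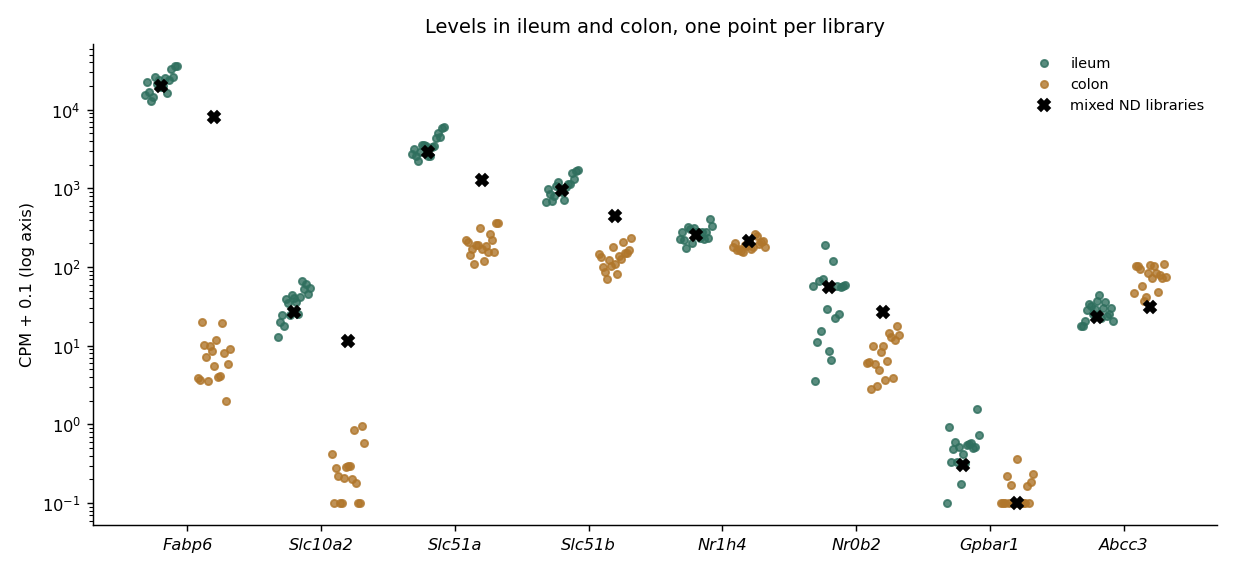
CPM plus 0.1 of the 8 genes on a log axis in 17 libraries of ileum (green) and 17 of colon (brown), with crosses for the mixed ND library of each tissue. *Fabp6*, *Slc10a2*, *Slc51a* and *Slc51b* separate fully between tissues, *Nr1h4* nearly coincides, *Abcc3* is higher in colon, and the colon cross lies above the other colon libraries for *Fabp6*, *Slc10a2*, *Slc51a*, *Slc51b* and *Nr0b2*.

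Of 29 further bile acid genes tested between tissues, 18 were lower and 5 higher in colon, beside 34.7% and 38.0% of all genes and 72.8% called in either direction. *Fgf15* was listed at 0 counts in all 17 colon libraries and at 13 to 1287 counts in ileum. The other 3 with the most negative values were *Abcc2*, which encodes the apical conjugate pump MRP2 (log2 -7.42, SE 0.23), the cytochrome *Cyp3a18* (-6.37, SE 0.20) and *Gata4*, a transcription factor of the proximal small intestine, which had at most 1 count in any colon library and 0 counts in 15 of 17, so that its fitted value of -5.79 and its place in this order depend on the prior count. *Cyp8b1*, the sterol 12-hydroxylase that sets the share of cholic acid in liver, stood at 14.4 to 121 CPM in colon and at 0 to 4 counts in ileum, with 0 counts in 12 of 17 libraries, so that its fitted value of 9.94 depends on the prior count. *Cyp27a1* (0.59, SE 0.10), *Amacr*, a racemase of side chain oxidation (0.44, SE 0.07), and *Rxrb*, a partner of nuclear receptors (0.40, SE 0.04), were next.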

How the data were processed

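RNA of whole ileum and proximal colon from 18 rats was measured in 36 libraries. According to the study's methods, polyadenylated RNA was made into libraries with a stranded kit, sequenced on an Illumina NextSeq, aligned with STAR and counted per gene in SeqMonk, and the submitters' processing notes name the genome build rn6. Versions and the strand setting of the counting are not given in the sources used here, and 0 of the 8 genes overlap another gene of the table. The deposited table holds raw counts, which the authors did not normalize. A deposited table of log2 values was not used.

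Counts were analysed with edgeR 4.0.16 under R 4.3.3 (filterByExpr by group, TMM, robust glmQLFit with the legacy method, glmQLFTest), with group and flow cell as terms and Benjamini-Hochberg adjustment over all genes tested in a comparison. Intervals are at the 95% level, and SE is the log2 fold change over the square root of F. The 2 mixed libraries, which the study kept, were left out and restored as an alternative. Colon and ileum were compared with group and flow cell as terms, and the tissue difference with flow cell within tissue. CPM levels used TMM over all 36 libraries. The rats are separate animals.

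Named are the 8 genes, further bile acid genes called in ileum, the 4 most positive and 4 most negative of these between tissues, and the 3 genes closest to each called gene among those with a mean of at least 1 log2 CPM, which for *Fabp6* are not reported here. The genes and lists were chosen with earlier results of these data known, and some also appear in gene lists of the paper. Scripts were tested on simulated counts. Alternatives were RLE and upper quartile scaling, no filter and 1 CPM in 6 libraries, DESeq2 1.42.0, the edgeR 4 method, a model with flow cell dropped, omission of flow cell 2, fits of 2 groups, a B cell covariate, epithelium scaling, the rat as block and omission of single libraries. Figures were drawn with matplotlib 3.10.9.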

Additional observations from a re-analysis of the deposited data

Results flagged for a closer look

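One library stood apart within its group, among 39 groups of 5 or 6 libraries examined, where chance sets apart about 1 group in 20. The colon library of D1M rat K3987 held *Slc51a* at 313 CPM, beside 119 to 189 CPM in the other D1M colon libraries, and it was also the highest of them in *Slc51b*.

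The ND colon library of rat K4028, which was left out of the comparisons, held genes of ileal bile acid transport above all other colon libraries. *Fabp6* stood there at 8193 CPM, 412 times the highest of the others, *Slc10a2* at 11.3 CPM against at most 0.860 CPM, *Slc51a* at 1292 CPM against at most 365 CPM, *Slc51b* at 452 CPM against at most 237 CPM and *Nr0b2* at 27.1 CPM against at most 17.97 CPM. *Abcc3*, higher in colon than in ileum, stood at 31.1 CPM, below the 36.4 to 111 CPM of the others. In the ND ileum library of rat K4040, which held colon markers, all 8 genes lay within the range of the other ileum libraries.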

How the results depend on the processing

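Between D3M and ND ileum, 4 of the 8 genes were called in the reported fit, and 0 were called with only the libraries of the groups compared, 0 without flow cell 2, 0 without the 6 libraries highest in B cell markers, an alternative chosen after seeing the data, and 1 to 4 when 1 library was left out. The first 3 of these alternatives called 0, 5 and 0 of all genes, where the reported one called 1024, and they rest on fewer libraries. In the first 2, the fold change rests on 1 ND library in flow cell 1 and 1 in flow cell 3. Between D3M and D1M ileum, 2 genes were called in the reported fit, 1 with no flow cell term, 1 with scaling to epithelium markers, 0 without flow cell 2 and 0 to 3 when 1 library was left out. The log2 difference of the *Slc51a* to *Slc51b* ratio between D3M and ND ileum was 0.02, lay between -0.014 and 0.0898 over comparisons that left out 1 library, and its sign turned without D3M rat K3961 or ND rat K4037 or K4038. With scaling to epithelium markers *Nr1h4* moved from 0.00 to -0.39 between D3M and ND ileum and turned from -0.47 to 0.082 between colon and ileum. Paired by rat, with the rat as replicate block, since the labels give each rat both tissues, 7 genes were called between tissues and 0 for the tissue difference, and the block changed no other call. Counts of called genes under the other alternatives stayed within 1.5 times the reported ones. Of 1565 fold changes of single genes under the alternatives, 1423 kept direction and call, 44 lost a call, 5 gained one, 2, those of *Nr1h4*, turned, and 91, not called in either fit, changed sign. The turn of *Nr1h4* between D3M and ND ileum started from an estimate of 0.00.

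Each gene had at least 233 counts in every ileum library used, except *Gpbar1* (0 to 20) and *Nr0b2* (46 or more). The parts of counting and of spread between rats in the intervals were not separated. Intervals do not cover errors shared by a flow cell. In colon, *Slc10a2* and *Gpbar1* were too low to test. ND rats were younger than diabetic rats. Flow cell 2 held no D3M ileum library, and flow cell 1 no D3M colon library.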

Other observations

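Over the 17 ileum libraries, the log2(CPM + 1) levels of *Nr0b2* and *Fgf15* rose together, a relation computed after their values had been seen and the only relation between genes across rats that was tested (Pearson's r = 0.719, permutation p = 0.00149, Spearman's rho = 0.61, permutation p = 0.0103). Without the 2 libraries farthest from the median of *Nr0b2* it was weaker, and by rank it no longer passed (r = 0.603, permutation p = 0.018, rho = 0.432, permutation p = 0.11). With the group means removed r was 0.74 and rho 0.718 (permutation p = 0.00096 and 0.00183). Within the 8 libraries of flow cell 1, r was 0.901 and rho 0.857, and no value was computed within flow cell 2 or 3. In flow cell 3 the extremes of the genes fell in different libraries. K3990 was the highest there in *Nr0b2* but not in *Fgf15*, and K4028 the lowest in *Nr0b2* but not in *Fgf15*. In ND and D1M rats, the 2 libraries of each group highest in *Nr0b2* and in *Fgf15* were K4047, K4028, K3986 and K3990. Their summed B cell levels were 915, 796, 622 and 471 CPM. The levels went apart in some other libraries. ND rat K4038, at 462 CPM of B cell markers, held 10.9 CPM of *Nr0b2* and 5.03 CPM of *Fgf15*. D1M rat K3978, at 21.1 CPM of B cell markers, held 69.6 CPM of *Nr0b2*, above the 65.8 CPM of K4047. In D3M rats K3959, the highest in B cell markers at 314 CPM, was the lowest in *Nr0b2*. The part of B cells in the relation was not tested.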
